A study of Mus musculus with 2 samples.

Results

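The genes described here are the ligands and receptors of the semaphorin, ephrin, slit and netrin systems, compared between a teratoma formed by E14 cells and a teratoma formed by E14-Sox2TA/WT cells. The rule that defines them reads gene symbols, taking Sema3 to Sema7, Plxn, Nrp, Efna, Efnb, Epha, Ephb, Slit, Robo, Ntn, Dcc and Unc5 genes. The rule found 69 of the 45777 genes in the table, with 31 in the semaphorin system, 22 in the ephrin system, 7 in the slit system and 9 in the netrin system. Of these, 35 encode ligands and 34 encode receptors.

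RNA-seq was performed on 1 library per group. E14 is an ESC line of the mouse, and its teratoma had wild-type Sox2. E14-Sox2TA/WT cells were made from E14 with CRISPR/Cas9, were expanded from single cells and are heterozygous for T258A of Sox2, a change that replaces a threonine that can bear O-GlcNAc with alanine. Both lines were inoculated under the skin of BALB/c-nu mice, 3 mice per group, and teratomas were harvested on day 14. The sources used here do not state whether a library came from 1 teratoma or from several, and the labels name teratoma as the tissue while their extraction text speaks of an ESC line. The host is also a mouse, so RNA from host vessels, skin or blood is counted with that of the graft.

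Axon guidance molecules steer growing axons and migrating cells by attraction or repulsion. Semaphorins act through plexins, with neuropilins as co-receptors for most secreted class 3 semaphorins. Ephrins are held on the cell surface and bind Eph receptor tyrosine kinases, with signals running into both cells, slits bind Robo receptors, and netrins bind Dcc and the Unc5 receptors. Several of these proteins also act outside the nervous system, in blood vessels, bone and epithelia.

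The libraries held 50529171 reads on genes for the E14 teratoma and 49030281 for the E14-Sox2TA/WT teratoma, so counting error is small for abundant genes. Reads on the 69 genes numbered 234606 and 138677. Mitochondrial genes held 5.17% of TPM in E14 and 9.70% in E14-Sox2TA/WT, and without them 21 guidance genes were called lower and 2 higher by the rule given below. No share of all genes was computed without mitochondrial genes. With no replicate, no difference below has a test, and the 95% Clopper-Pearson intervals stand for counting error between these libraries and do not compare the genotypes. In whole tumours, fewer cells of a type and less RNA per cell cannot be told apart. Sox2, the mutated gene, had a TPM of 246 in E14 and 130.1 in E14-Sox2TA/WT, which was 1.89-fold lower (95% interval 1.84 to 1.94). Reads of its 2 alleles are not separated in the deposited values. TPM corrects reads for transcript length and library size.

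Expression of the guidance genes was lower on balance in the E14-Sox2TA/WT teratoma. Their summed TPM was 1647 in E14 and 945 in E14-Sox2TA/WT, a 1.74-fold lower total. A gene was called a DEG when its TPM differed by more than 2-fold and reached 10 in at least 1 library. The study's methods state this rule, but the paper reports fewer teratoma DEGs in each direction than it gave here. By this rule 23 of the 69 genes were lower, where 18.7% of the 11578 genes of the table that reached this TPM were lower. Only 2 of the 69, Epha1 and Epha2, were higher, where 10.8% of the same 11578 genes were higher. Of the 69 guidance genes 50 reached the TPM of 10, so these shares of all genes stand beside 23 and 2 of 50. Another 25 reached the TPM of 10 without a 2-fold difference, and 19 did not reach it in either library. A gene that is low in one library passes this filter only through the other, and among the 24 guidance genes that reached a TPM of 10 in both teratomas 7 were lower and 0 were higher, where 12.5% and 5.34% of all 8963 genes that did so were lower and higher. Of the 23 lower calls 19 held under all 5 scalings of the libraries, and Sema4a, Efna2, Plxna1 and Nrp2 were the exceptions. The whole counting interval lay beyond 2-fold for 21 of the 23 lower and for both higher genes.

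On the log2 scale, with 1 added to each TPM, the median difference over the 67 guidance genes that reached a TPM of 1 in either library was -0.60, with a range of -2.90 to 1.90. The median over all 18558 genes that did so was -0.06. The difference was negative for 52 of the 67 guidance genes, or 77.6%, and for 52.5% of all these genes. Before the correction for transcript length described below, receptors had a median of -0.99 and ligands a median of -0.52. By system, the median was -0.82 for semaphorins and their receptors, -0.57 for ephrins and Eph receptors, -0.66 for netrins and their receptors and -0.38 for slits and Robo receptors. The order of the systems depends on the measure. Among genes that reached a TPM of 10 in either teratoma the slit median was -1.70, over 5 genes, and the summed TPM was lower by 2.13-fold for the slit, 1.93-fold for the semaphorin, 1.59-fold for the netrin and 1.51-fold for the ephrin system.

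**Figure D1:**
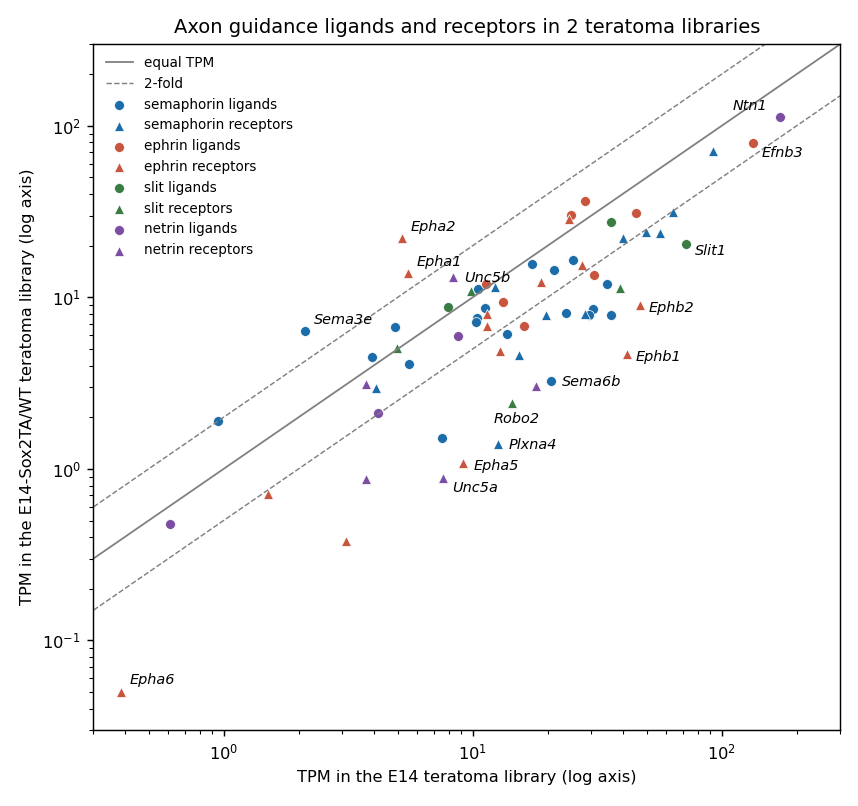
TPM of each of the 69 guidance genes in the E14 teratoma library (x axis, log scale) and the E14-Sox2TA/WT teratoma library (y axis, log scale), with circles for ligands, triangles for receptors and colors for the 4 systems. Points below the lower dashed line were more than 2-fold lower in the E14-Sox2TA/WT teratoma, as for Ephb1 (41.5 and 4.70), while Epha2 (5.19 and 22.1) lies above the upper dashed line.

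The genes with the highest expression kept their places. Ntn1, the main diffusible netrin, ranked 1 in both libraries, with a TPM of 171.5 in E14 and 112.8 in E14-Sox2TA/WT. Efnb3, a B ephrin of the neural midline, ranked 2 in both, with 133.5 and 79.6. Plxnb2, a receptor for class 4 semaphorins found in many tissues, ranked 3 in both, with 92.0 and 71.7. All 3 had lower values in E14-Sox2TA/WT by less than 2-fold. Slit1, by contrast, ranked 4 in E14 and 14 in E14-Sox2TA/WT, Ephb2 ranked 8 and 30, and Ephb1 ranked 10 and 50.

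Within the semaphorin system, 24 of the 31 genes reached the TPM of 10, of which 14 were called lower and 0 higher. Among all genes that reached it, 18.7% were lower and 10.8% higher. The secreted and membrane-bound ligands differed in their values. The class 3 semaphorins, which are secreted, had a summed TPM of 45.2 in E14 and 50.5 in E14-Sox2TA/WT, a median log2 difference of 0.16 and no DEG. Sema3c, which acts in outflow tract and vascular patterning, had a TPM of 10.51 in E14 and 11.1 in E14-Sox2TA/WT. Sema3f, a Nrp2 ligand, had 17.3 and 15.7, and Sema3a, the classical repellent that binds Nrp1, had 5.55 and 4.11. Sema3f was one of 3 guidance genes, with Plxnd1 and Efna3, whose sign depended on how the libraries were scaled.

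The remaining class 3 genes were low in both libraries. Sema3e, a ligand of Plxnd1 in vessels, had a TPM of 2.12 in E14 and 6.38 in E14-Sox2TA/WT, which was 3.02-fold higher (95% interval 2.67 to 3.41) but below the TPM filter. Sema3b and Sema3d were also slightly higher in the E14-Sox2TA/WT teratoma, at 4.87 and 6.70 and at 3.93 and 4.51. Sema3g had 84 reads in E14 and 228 in E14-Sox2TA/WT. Thus 5 of the 7 class 3 genes had higher values in the E14-Sox2TA/WT teratoma.

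All 13 transmembrane or membrane-anchored semaphorins had lower values in the E14-Sox2TA/WT teratoma, though Sema5a, at -0.42 on the log2 scale, turned to 0.32 after the correction for transcript length described below, and the class 6 genes had the largest drop in summed TPM among the semaphorin classes. Class 6 semaphorins are transmembrane ligands of A plexins, and their summed TPM was 114.8 in E14 and 31.2 in E14-Sox2TA/WT, 3.68-fold lower. Sema6b had a TPM of 20.6 and 3.26, which was 6.33-fold lower (95% interval 5.63 to 7.14). Sema6c had 35.8 and 7.88, or 4.55-fold lower (4.21 to 4.91). Sema6a and Sema6d, at 34.7 and 11.9 and at 23.6 and 8.10, were lower by 2.91-fold and 2.92-fold, so that all 4 genes of the class were DEGs.

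In class 5, whose members carry thrombospondin repeats, Sema5b had a TPM of 29.3 in E14 and 7.93 in E14-Sox2TA/WT, 3.70-fold lower (95% interval 3.44 to 3.98). Its relative Sema5a had 10.4 and 7.53. Class 4 semaphorins include regulators of immune and bone cells, and their sum was 109.5 in E14 and 55.8 in E14-Sox2TA/WT. Sema4g was the class 4 DEG with the larger fold, with 30.4 and 8.54, or 3.56-fold lower (3.31 to 3.82), followed by Sema4a with 13.7 and 6.09. Sema4f was 4.95-fold lower at 7.53 and 1.52 but did not reach the TPM filter. Sema4b, Sema4c and Sema4d, and the GPI-anchored Sema7a, were lower by less than 2-fold.

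The 11 plexins and neuropilins all had lower values in the E14-Sox2TA/WT teratoma, and 7 of the 10 that reached the TPM of 10 were DEGs. Plxnd1 turned higher with FPKM and with reads scaled by library total, and Plxnd1 and Plxnb2 turned higher after correction for transcript length, which is described below. All 4 A plexins, which transduce class 3 and class 6 signals, were called lower, with a summed TPM of 124.5 in E14 and 49.0 in E14-Sox2TA/WT. Plxna4, a plexin of sensory and sympathetic neurons, had a TPM of 12.6 and 1.40, or 8.97-fold lower (95% interval 8.16 to 9.89). Plxna3 and Plxna2 had 28.3 and 8.04 and 19.8 and 7.92. Plxna1 lay at the threshold, with 63.8 and 31.6, a 2.02-fold difference (1.96 to 2.08), and was called with the deposited TPM but with none of the other 4 scalings, which were FPKM and reads scaled by library total, by TMM or by median-of-ratios factors.

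Plxnb1, the receptor of Sema4d, had a TPM of 56.5 in E14 and 23.6 in E14-Sox2TA/WT, and Plxnc1, the receptor of Sema7a, had 15.3 and 4.63, so both were DEGs. Plxnd1, which is prominent in endothelium, had 12.3 and 11.5, and Plxnb3 had 4.09 and 2.95. The neuropilins, which also bind VEGF, had similar differences, with 40.0 and 22.2 for Nrp1, 1.80-fold lower, and 49.9 and 24.1 for Nrp2, 2.07-fold lower (95% interval 1.997 to 2.153). Like Plxna1, Nrp2 was called with the deposited TPM alone.

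**Figure D2:**
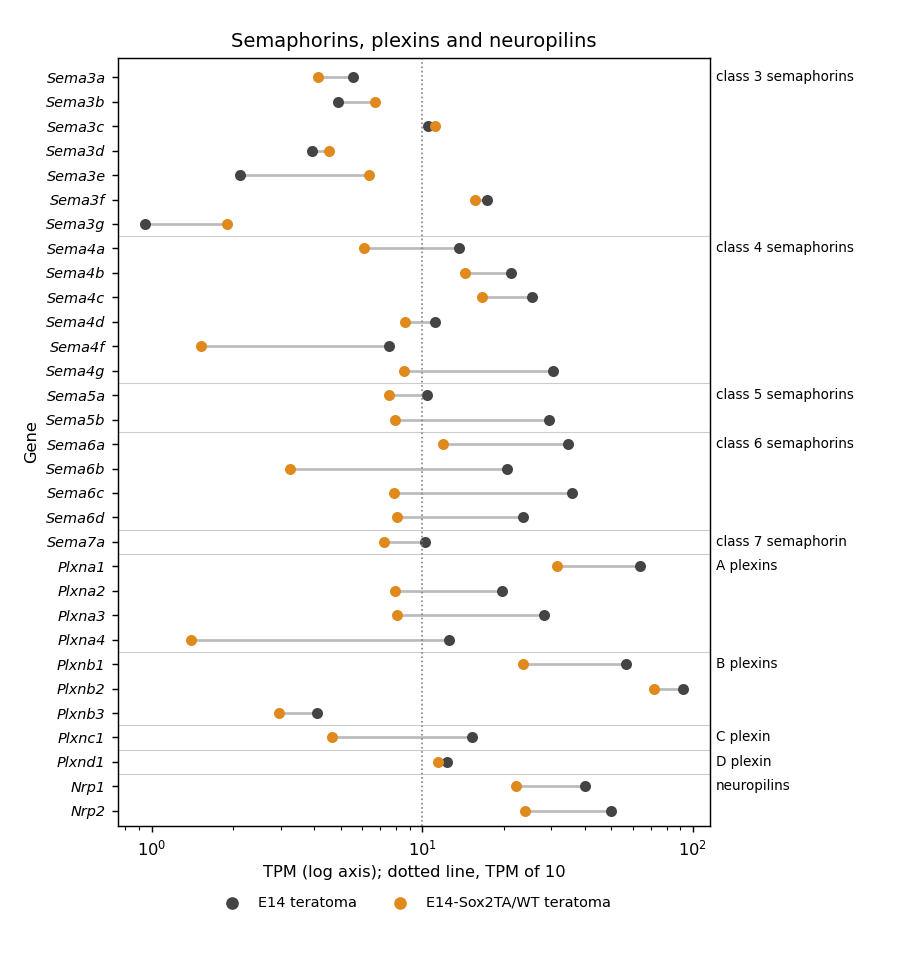
TPM (x axis, log scale) of the 31 semaphorins, plexins and neuropilins in the E14 (dark points) and E14-Sox2TA/WT (orange points) teratoma libraries, 1 library each, grouped by family, with a dotted line at the TPM of 10. The 4 class 6 semaphorins and the 4 A plexins all lie more than 2-fold lower in the E14-Sox2TA/WT teratoma. Of the 7 class 3 semaphorins 5 lie higher, among them Sema3c, whose counting interval included equal TPM.

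In the ephrin system, 18 of the 22 genes reached the TPM of 10, of which 5 were called lower and 2 higher. Shares among all genes that reached it were 18.7% lower and 10.8% higher. The 2 higher genes, both EphA receptors, were the only guidance genes called higher, and 2 of 18 is close to the share of all genes. The log2 differences of the 8 ephrin ligands ranged from -1.14 to 0.36, and those of the Eph receptors with a TPM of at least 1 ranged from -2.90 to 1.90. Efna2 and Efna5, GPI-anchored A ephrins that set up topographic maps in the brain, were DEGs, with a TPM of 30.6 in E14 and 13.5 in E14-Sox2TA/WT for Efna2 and 16.1 and 6.78 for Efna5. Efna4 had 28.1 and 36.3 and Efna1, an A ephrin of vessels and epithelia, had 11.26 and 12.001, both less than 2-fold apart. Efna3 had 13.2 and 9.40. Of the transmembrane B ephrins, Efnb2, a marker of arteries, had 24.84 and 30.006, while Efnb1 had 45.4 and 30.8 and Efnb3 was 1.68-fold lower.

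EphA receptors had nearly equal sums, 66.5 in E14 and 65.4 in E14-Sox2TA/WT, but different members made up these sums. Epha2, a receptor of epithelia and early embryonic cells, had a TPM of 5.19 in E14 and 22.1 in E14-Sox2TA/WT, or 4.26-fold higher (95% interval 3.86 to 4.70). Epha1, also an epithelial receptor, had 5.50 and 13.8, or 2.51-fold higher (2.25 to 2.81). Both calls held under all 5 scalings. Epha2 held 7.81% of the EphA TPM in E14 and 33.8% in E14-Sox2TA/WT, and Epha1 held 8.27% and 21.1%.

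Of the EphA receptors of the nervous system, Epha4, which takes part in motor axon and corticospinal guidance, had a TPM of 18.8 in E14 and 12.4 in E14-Sox2TA/WT, Epha7 had 11.4 and 8.04, and Epha3 had 11.5 and 6.83. Epha5 and Epha8 had larger differences at levels below the TPM filter, with 9.13 and 1.08 for Epha5 and 3.11 and 0.378 for Epha8. Epha10 had 1.51 and 0.713, and Epha6, under a TPM of 1 in both libraries, had 203 and 29 reads. Each of these 7 EphA genes had a lower value in the E14-Sox2TA/WT teratoma.

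EphB receptors, which bind the B ephrins, had a summed TPM of 153.1 in E14 and 62.7 in E14-Sox2TA/WT, 2.44-fold lower. Ephb1, a receptor that turns retinal axons away from the optic chiasm, had a TPM of 41.5 and 4.70, from 4661 and 589 reads, and was 8.84-fold lower (95% interval 8.11 to 9.65). Ephb2, an axonal and synaptic receptor, had 46.95 and 9.003, or 5.21-fold lower (4.999 to 5.440). Ephb6, which lacks kinase activity, was 2.67-fold lower at 12.9 and 4.84, and Ephb3 was less than 2-fold lower at 27.4 and 15.5. Ephb4, the venous receptor of Efnb2, was the exception, with 24.3 and 28.7. Its share of the EphB TPM was 15.9% in E14 and 45.7% in E14-Sox2TA/WT, the largest share in the second.

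The promoters of the Eph receptors called with the largest folds in each direction, among those with 1 entry in the RefSeq promoter table, are printed because these genes of 1 family differ in opposite directions between the libraries. Each sequence is the 250 bases before the start that this table gives on build GRCm38.p6, 5′ to 3′ on the strand of the gene. For Ephb1 it is chr9:102354694-102354943 on the minus strand, and for Ephb2 chr4:136836013-136836262 on the minus strand. For Epha2 it is chr4:141300971-141301220 on the plus strand, and for Epha1 chr6:42373269-42373518 on the minus strand. The RefSeq gene spans of Ephb2, up to 136836326, and of Epha1, up to 42373314, reach past the table's starts, so these windows lie wholly or partly inside the annotated gene. Capitals mark the 6-base cores ACAAAG and ACAATG, which Sox proteins can bind, searched on both strands.
Ephb1: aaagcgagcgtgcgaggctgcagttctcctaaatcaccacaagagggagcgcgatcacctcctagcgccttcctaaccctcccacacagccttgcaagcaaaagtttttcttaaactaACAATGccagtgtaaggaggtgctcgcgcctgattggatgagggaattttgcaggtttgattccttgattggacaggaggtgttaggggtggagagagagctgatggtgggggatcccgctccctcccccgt
Ephb2: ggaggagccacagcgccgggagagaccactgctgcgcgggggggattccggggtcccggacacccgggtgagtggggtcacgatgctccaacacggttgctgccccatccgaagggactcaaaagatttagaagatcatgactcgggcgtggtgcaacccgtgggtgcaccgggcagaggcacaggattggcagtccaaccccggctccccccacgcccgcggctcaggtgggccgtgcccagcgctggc
Epha2: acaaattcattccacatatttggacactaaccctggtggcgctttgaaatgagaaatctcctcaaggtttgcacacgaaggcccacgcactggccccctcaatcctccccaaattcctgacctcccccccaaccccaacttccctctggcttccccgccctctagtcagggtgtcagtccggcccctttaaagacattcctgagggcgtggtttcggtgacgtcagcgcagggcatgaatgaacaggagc
Epha1: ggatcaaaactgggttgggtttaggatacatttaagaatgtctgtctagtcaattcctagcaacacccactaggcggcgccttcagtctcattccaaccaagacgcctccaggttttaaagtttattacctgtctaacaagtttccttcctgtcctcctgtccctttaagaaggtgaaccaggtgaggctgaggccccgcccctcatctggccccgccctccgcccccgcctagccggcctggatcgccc
The Ephb1 window held 1 core and the others held 0. Such a core was in 25.2% of the 32851 windows of all genes, in 12 of the 75 windows of the 59 guidance genes with an entry (16.0%) and in 5 of the 26 windows of the 18 with an entry that were called lower. A match describes letters only and is not a binding site, and the RNA data do not measure binding.

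The promoter of Ephb2 was richer in G and C, at 68.4%, than those of Ephb1, Epha2 and Epha1, at 54.0%, 55.6% and 54.4%. The median over all guidance windows was 64.4%, and 52.4% over all genes.

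In the slit system, 5 of the 7 genes reached the TPM of 10, of which 3 were called lower and 0 higher. Among all genes that reached it, 18.7% were lower and 10.8% higher. Slit1, a repellent found mainly in the nervous system, had a TPM of 71.7 in E14 and 20.4 in E14-Sox2TA/WT, 3.51-fold lower (95% interval 3.38 to 3.65). Slit2, which is also made by many tissues outside the brain, had 35.9 and 27.3, and Slit3 had 7.94 and 8.76. Slit1 therefore held 62.1% of the slit TPM in E14 and 36.1% in E14-Sox2TA/WT, and Slit2 31.1% and 48.4%.

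Of the 4 Robo receptors 3 reached the TPM of 10, and 2 of these were called lower. Robo1, a slit receptor of commissural axons, had a TPM of 39.0 in E14 and 11.3 in E14-Sox2TA/WT, 3.46-fold lower (95% interval 3.30 to 3.62). Robo2, its close relative, was 5.96-fold lower by TPM at 14.4 and 2.42, but 2.83-fold lower by reads scaled to the library total. The transcript length implied by its reads and FPKM was 10391 nt in E14 and 19054 nt in E14-Sox2TA/WT. Robo3, which lets axons cross the midline, had 9.85 and 10.9, and Robo4, a receptor of endothelium, had 4.95 and 5.08. Neither differed by more than 1.5-fold.

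In the netrin system, only 3 of the 9 genes reached the TPM of 10, and of these Dcc alone was called. Among all genes that reached it, 18.7% were lower and 10.8% higher. Dcc, the receptor for attraction to netrin, had a TPM of 18.03 in E14 and 3.04 in E14-Sox2TA/WT, 5.92-fold lower (95% interval 5.51 to 6.38). Ntn1, its ligand, was 1.52-fold lower and held 92.7% and 93.0% of the netrin TPM. Ntn4, a netrin of basement membranes, had 8.76 and 5.91, Ntn3 had 4.18 and 2.13, and Ntn5, under a TPM of 1 in both libraries, had 32 and 28 reads.

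The Unc5 receptors, which mediate repulsion from netrin, did not share a direction. Unc5b, which is also expressed in vessels, had a TPM of 8.35 in E14 and 13.2 in E14-Sox2TA/WT, 1.58-fold higher (95% interval 1.47 to 1.70). Unc5a and Unc5d were lower, with 7.60 and 0.887 and with 3.75 and 0.868, but did not reach the TPM filter. Unc5c had 3.73 and 3.11. Dcc held 43.5% of the netrin receptor TPM in E14 and 14.4% in E14-Sox2TA/WT, and Unc5b held 20.1% and 62.6%.

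**Figure D3:**
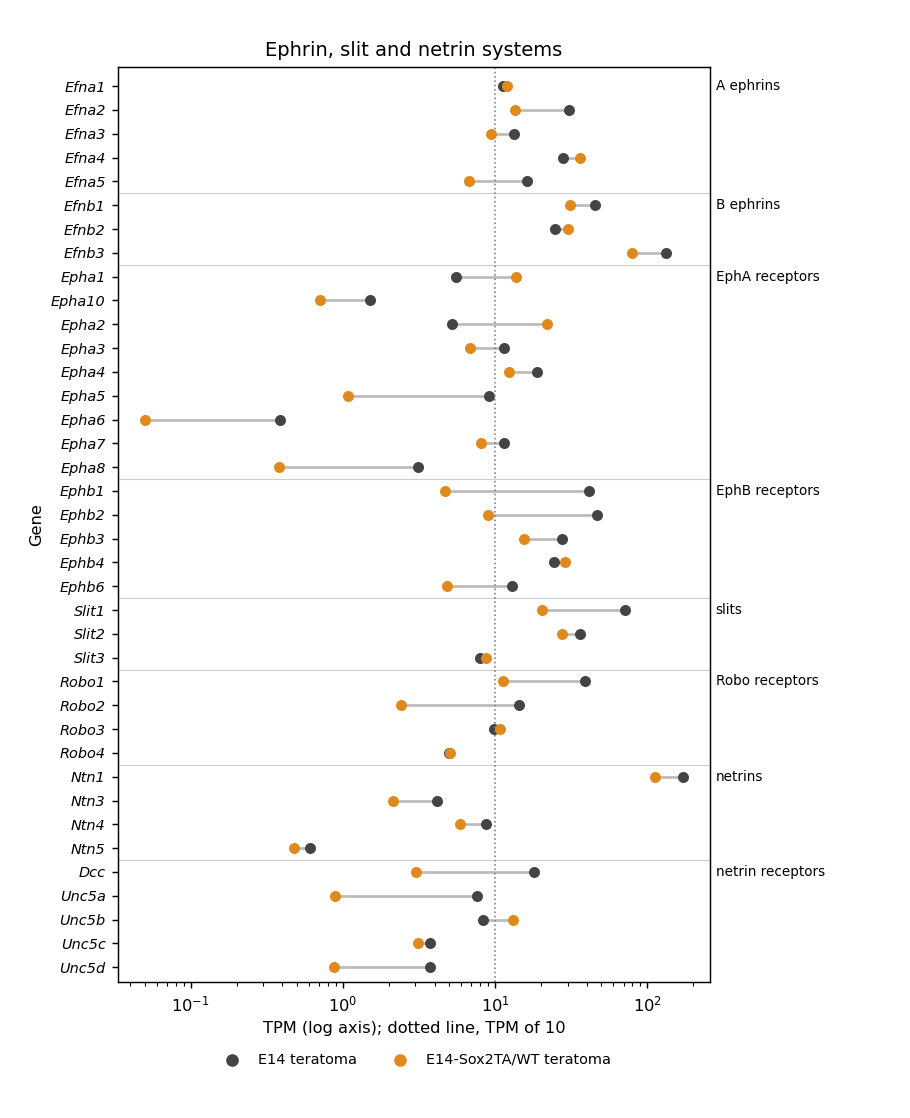
TPM (x axis, log scale) of the genes of the ephrin, slit and netrin systems in the E14 (dark points) and E14-Sox2TA/WT (orange points) teratoma libraries, 1 library each, grouped by family, with a dotted line at the TPM of 10. Epha1 and Epha2 lie to the right in the E14-Sox2TA/WT teratoma, and Ephb1, Ephb2, Slit1, Robo1 and Dcc lie to the left.

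**Figure D4:**
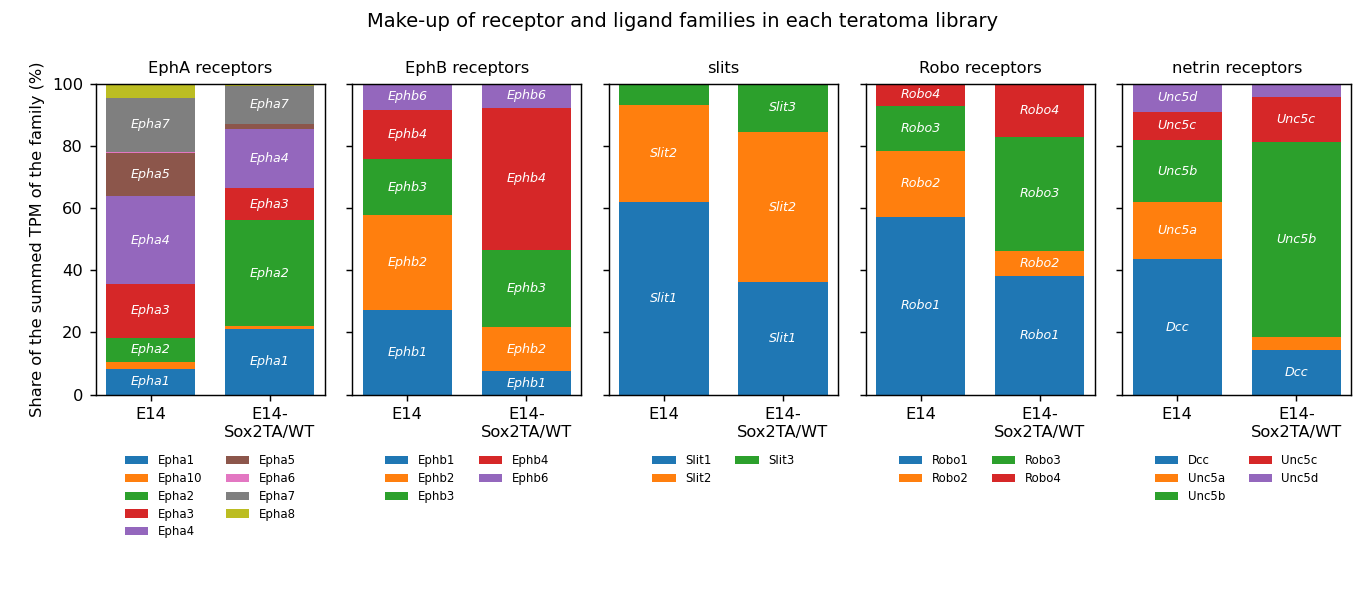
Share of the summed TPM of each family (y axis, percent) held by each member in the E14 and E14-Sox2TA/WT teratoma libraries, 1 library per bar. Epha2 took 7.81% and 33.8% of EphA, Ephb4 15.9% and 45.7% of EphB, and Unc5b 20.1% and 62.6% of netrin receptors, and a factor applied to a whole library leaves these shares as they are, while shares of raw reads would differ.

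The 69 genes lie on 19 chromosomes of GRCm38.p6. Sema3d, Sema3a, Sema3e and Sema3c lie close together on chromosome 5, between 12383161 and 17730268, where Sema3a was lower and the others had higher values in E14-Sox2TA/WT and none was called. Efna1, Efna3 and Efna4 are neighbors on chromosome 3, between 89271730 and 89338028, where none was called. On chromosome 4, the span of Ephb2, called lower, runs from 136647536 to 136836326, and that of Epha2, called higher, from 141301221 to 141329384. Epha8, which did not reach the TPM filter, lies between them.

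Another 62 guidance genes cover adhesion partners, co-receptors and signaling proteins inside the growth cone, with a median log2 difference of -1.08. Of the 54 that reached the TPM of 10, 32 were called lower and 0 higher. Among all 11578 genes that did so, 18.7% were lower and 10.8% higher. Cdk5r1, the activator of Cdk5 in neurons, had a TPM of 95.5 in E14 and 7.99 in E14-Sox2TA/WT. L1cam, an adhesion molecule of axons, had 50.2 and 6.56, and Dpysl3, a collapsin response mediator, had 380.4 and 101.7. Cfl1, an actin-severing protein used by all cells, was not called, at 2163 and 1780.

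Most markers of neural cells also had lower values in the E14-Sox2TA/WT teratoma. Of 14 neuron markers 13 were called lower, with a summed TPM of 3694 in E14 and 607 in E14-Sox2TA/WT. The most abundant were Tubb3, at 1722 and 170.3, and Gap43, at 474 and 106.1. The 10 neural progenitor markers summed to 3056 and 948, with 6 called lower. Of these 10 markers 8 had lower and 2 had higher values, namely Eomes (4.24 and 7.65) and Prom1 (58.1 and 73.2). The 10 glial markers summed to 809 and 268, with 7 called lower. No neural marker was at 0 reads in either library, and the lowest value was 232 reads, for the neuronal gene Rbfox3 in E14-Sox2TA/WT. The lists of epithelium, at 677 and 1640, fibroblasts, at 724 and 1678, and pluripotent cells, at 92.2 and 2022, were higher in sum, with 5 of 11, 4 of 9 and 10 of 10 genes called higher and 0 called lower. Endothelial markers summed to 143.2 and 179.1 with 1 of 12 called higher, macrophage markers to 984 and 1658 with 2 of 10 called higher, skeletal muscle markers to 369.7 and 198.7 with 4 of 10 called lower, and cartilage markers to 152.9 and 143.0 with 1 of 11 called lower and Matn1 at 0 reads in the E14 teratoma. Below the TPM filter, the cartilage genes Col10a1, with 11 and 326 reads, and Acan, with 47 and 207, had higher values in E14-Sox2TA/WT. So did Matn3, with 28 and 135 reads, and Comp, with 11 and 49. Hapln1, also below the filter, had a lower TPM, at 1.80 and 1.52. Of the 9 cartilage markers that reached a TPM of 1 in either library, 5 had lower and 4 had higher values. Sox9, the marker called lower, had a TPM of 44.1 and 16.9. Col11a1 was lower at 18.1 and 12.5, and Col2a1 was higher at 58.0 and 74.8. The TPM of 10 was reached by 8 neural progenitor, 5 endothelial, 9 macrophage, 8 skeletal muscle and 5 cartilage markers, and by every marker of the other lists. Beside these counts stand the shares of all 11578 genes that reached it, 18.7% lower and 10.8% higher. The 1 or 2 calls in the endothelial, macrophage and cartilage lists are too few to set apart from these shares. The part of these cell types in the values of the guidance genes was not tested.

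**Figure D5:**
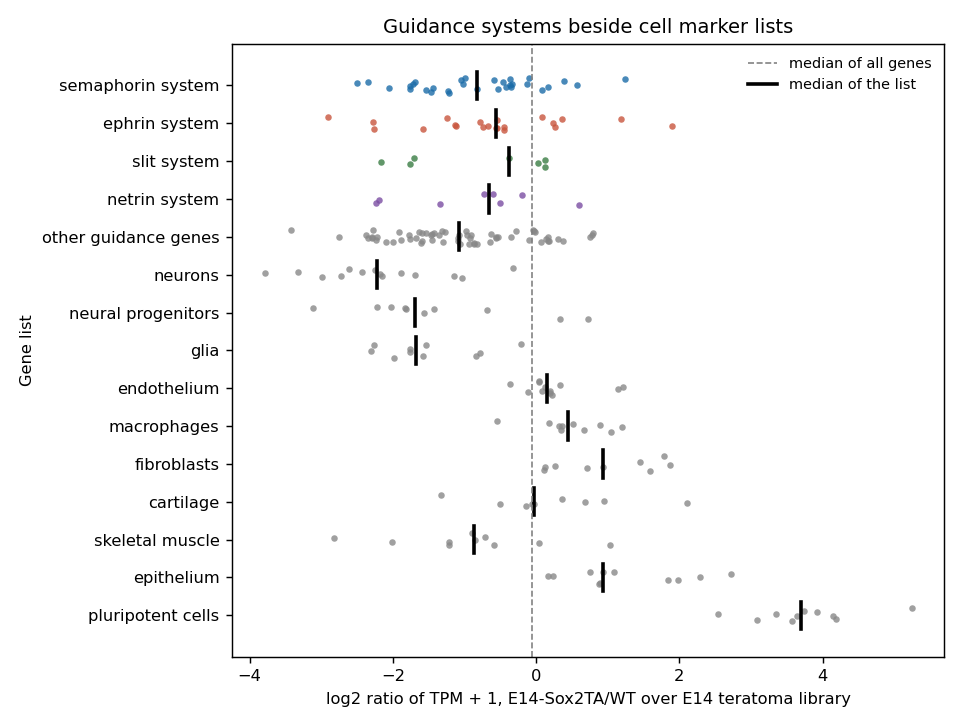
Log2 difference of TPM with 1 added, E14-Sox2TA/WT minus E14 (x axis), for genes that reached a TPM of 1 in either library, by gene list (y axis), with 1 point per gene, black bars for the median of each list and a dashed line for the median of all genes (-0.06). The medians of the 4 guidance systems, -0.82 to -0.38, lie between those of neurons (-2.22) and of epithelium (0.94).

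Guidance genes have long transcripts, and long transcripts were lower in this pair of libraries. The implied transcript length had a median of 5557 nt over the guidance genes and 2994 nt over all genes. It was 7311 nt over receptors and 4958 nt over ligands, so the medians of receptors and ligands given above are not matched for length. Among genes of at least 6000 nt, the median log2 difference was -0.51 over all 2602 genes and -0.99 over the 31 guidance genes. Between 4000 and 6000 nt it was -0.26 over all genes and -0.56 over the 26 guidance genes. After the running median of genes of like length was subtracted, the median of the guidance genes was -0.38, with 16 called lower and 2 called higher. No share of all genes called under this correction stands beside these counts, and the shares given above are for uncorrected TPM. The corrected median was -0.38 for the semaphorin, -0.37 for the ephrin and -0.46 for the netrin system, and that of the slit system turned to 0.24. The correction turned the sign of 8 guidance genes, none of them a DEG, with Sema3a, Sema3f, Sema5a, Plxnb2, Plxnd1, Slit2 and Unc5c turning higher and Efna1 lower. The length implied in the 2 libraries had a ratio within 10% of the median of all genes for 60 of the 69 guidance genes, and among the DEGs the exceptions were Robo2, Plxna3 and Sema6d.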

How the data were processed

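RNA-seq was analyzed for 1 E14 and 1 E14-Sox2TA/WT teratoma library. The authors deposited raw read counts, FPKM and TPM per gene, listed by NCBI identifiers. The submitters' processing notes name bcl2fastq 2.20.0, Trimmomatic, HISAT2 2.1.0 and StringTie 2.1.3b, and the builds mm10 and hg19, with no roles. Positions of all 69 genes and promoters came from RefSeq on GRCm38.p6.

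DEGs followed the rule stated in the study's methods, a TPM ratio above 2 with a TPM of at least 10 in 1 library. Over all genes this rule called 1253 higher and 2167 lower. The paper reports fewer in each direction, so the calls here are not its DEG set. The reason for the difference was not tested. The 95% Clopper-Pearson interval of a gene's reads was carried over to its TPM ratio. Medians used log2 of TPM plus a pseudocount of 1. The implied transcript length is reads per FPKM, and length correction subtracted the running median over 501 genes. The members and lists were chosen with earlier results of these data known, and the lists were assembled by hand. Every member could be named. From each list, up to 2 genes of highest TPM were named and up to 2 of largest change that reached a TPM of 10. Rbfox3, Matn1, Col10a1, Acan, Matn3, Comp, Hapln1, Eomes and Prom1 were named after their values were seen. Alternatives were scaling, TPM filter, fold, pseudocount, mitochondrial genes, chromosomes and length, and centring and a TPM filter of 10 on medians were added after seeing the data. A read ratio above 2 was tried on simulated data, where 200 of 200 genes changed 4-fold among 45777 were recovered. The simulated counts held counting error only, and the changed genes had a TPM of at least 10 in E14. Recovery was therefore close to assured, and differences between tumours were not simulated. TMM factors came from edgeR 4.0.16 in R 4.3.3, and the rest from Python 3.11.15 with pandas 2.3.3 and scipy 1.17.1. No p-value was computed.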

Additional observations from a re-analysis of the deposited data

How the results depend on the processing

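The 23 lower and 2 higher calls became 7 and 0 when a TPM of at least 10 was required in both libraries, and 13 and 1 with a fold above 3. The higher calls became 4 with a TPM filter of 1 and 4 with no filter. The fewer calls follow from the narrower rule. Shares of all genes were computed only for the main rule and for a TPM of 10 in both libraries. Counts under the other filters, folds and scalings have no such share beside them. They therefore do not compare the guidance genes with all genes. The median of the guidance genes, -0.60, was -0.40 with FPKM and -0.38 after correction for transcript length. The median of all genes was -0.06 with TPM and 0.11 with FPKM. Relative to all genes, the guidance genes were thus at -0.54 with TPM and -0.51 with FPKM. The median of the slit system, -0.38 over 7 genes, reversed to 0.24 after that correction. Slit2, the median gene before it, turned to 0.34, while Slit3, Robo3 and Robo4 were higher before and after. Slit1, Robo1 and Robo2 stayed lower, at -1.37, -1.14 and -1.39. The cause of the length trend was not tested. In all, 82 of 91 alternative values of these main results stayed within the limits set for them, and the other 9 are those given above. For a median the limits were an interval over the genes, which are not replicates. For the slit and netrin systems they were the whole range of the genes, -2.17 to 0.13 and -2.23 to 0.60. The slit median of -1.70 thus counted as within them, so this count of 82 does not measure robustness. For single genes 481 alternative values were computed, of which 241 stayed within counting error and 240 moved beyond it, with no sign change in a called gene. Outside the calls, Sema3f, Plxnd1 and Efna3 changed sign with the scaling and 8 genes with the length correction. With 19 to 21 lower calls, the other 4 scalings and TPM without mitochondrial genes changed the count by less than 1.5 times. No paired analysis was possible because each genotype had a single library, and for the same reason no library could be left out. Depth limits the 4 guidance genes with under 100 reads in a library, and counting error does not cover differences between tumours.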
